A study of Mus musculus with 2 samples.

Results

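Lin28a, Lin28b, Trim71, Hmga1, Hmga2, Igf2bp1, Igf2bp2, Igf2bp3 and Sall4 are genes of the early embryo that are known for their ties to the let-7 microRNAs or to stem and progenitor cells. They were chosen by gene symbol, and all 9 symbols were found among the 43346 annotated genes of the deposited tables. The tables come from total RNA sequencing of the hindbrain, from which the pons, cerebellum and medulla develop. The tissue came from healthy B6NCrl mouse embryos at embryonic day 10.5, with males and females pooled. There was 1 group of 2 biological replicates, a pool of 69 embryos (replicate 1) and a pool of 51 embryos (replicate 2), and 10 ng of RNA longer than 200 nucleotides entered each library together with spike-in RNAs. Both pools carry 1 shared donor ID in the labels, and a pool averages over embryos, so the spread given here is that between these 2 pools. With 1 group and 1 stage no comparison between conditions and no change over time could be tested; every value below is a level, or a ratio between the pools, given as a description.

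The let-7 microRNAs are short RNAs that pair through their seed, the bases near the 5′ end, with sites in the 3′ untranslated region (3′ UTR) of target mRNAs and lower the output of those targets. LIN28A and LIN28B are RNA-binding proteins that hold back let-7 maturation by binding the loop of its precursor, and their own mRNAs are let-7 targets, so the pair and let-7 restrain each other. TRIM71 (Lin-41) is an RNA-binding protein and let-7 target, HMGA1 and HMGA2 are AT-hook chromatin proteins, IGF2BP1, IGF2BP2 and IGF2BP3 bind and stabilise mRNAs such as that of Igf2, and SALL4 is a zinc-finger transcription factor of stem cells. In the nervous system several of these genes are known for high levels in early neural progenitors and low levels later.

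The mature let-7 sequences show what the sites have to match. All 9 mature let-7 family sequences of the mouse in RefSeq (build GRCm38.p6) share 1 seed, GAGGUAG, at bases 2 to 8. It is printed here in capitals for 3 members that differ outside the seed.
let-7a: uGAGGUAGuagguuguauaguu
let-7g: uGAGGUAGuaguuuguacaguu
miR-98: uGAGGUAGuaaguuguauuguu
Because total RNA longer than 200 nucleotides was sequenced, these mature microRNAs were not measured.

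The 3′ UTR of the most abundant coding transcript of each gene (GENCODE M21, GRCm38) was searched on its sense strand for CTACCTC, the match to let-7 bases 2 to 8 (a 7mer-m8 match), and for CTACCTCA, the same match followed by A (an 8mer match, which contains the former). The first 8mer of each 3′ UTR, or for Hmga1 its only match, is shown 5′ to 3′ on the strand of the mRNA to let the shared seed match be compared with the unrelated bases around it; capitals mark the match.
Lin28a: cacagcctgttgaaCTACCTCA
Lin28b: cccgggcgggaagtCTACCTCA
Trim71: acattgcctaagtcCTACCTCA
Hmga2: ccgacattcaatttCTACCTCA
Hmga1: cctctgttcacaaaCTACCTCt
Igf2bp1: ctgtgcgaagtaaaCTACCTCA
Igf2bp2: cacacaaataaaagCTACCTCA
Igf2bp3: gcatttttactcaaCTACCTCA
Sall4: gggctttaatttatCTACCTCA
On GRCm38 the sites lie at chr4:134005189-134005210 (Lin28a), chr10:45381022-45381043 (Lin28b), chr9:114512472-114512493 (Trim71), chr10:120364224-120364245 (Hmga2), chr11:95961778-95961799 (Igf2bp1), chr16:22059473-22059494 (Igf2bp2), chr6:49086787-49086808 (Igf2bp3) and chr2:168748940-168748961 (Sall4), all on the minus strand. The Hmga1 site lies at chr17:27563278-27563299 on the plus strand, and 8 of the 9 genes are on the minus strand.

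All 9 genes held at least 1 match, and 8 of 9 held an 8mer; Hmga1 was the exception, with a 7mer-m8 match alone. Over all 21021 protein-coding genes with an annotated 3′ UTR, 9.02% held a 7mer-m8 or 8mer match in their longest 3′ UTR and 3.06% held an 8mer. Among the 13106 of them with enough counts for the comparison of pools below, 10.8% held a 7mer-m8 or 8mer match. The shorter match TACCTC was in all 9 genes and in 23.4% of all protein-coding genes. The genes were chosen partly as known let-7 targets, so this is a description of the sequences and not a result about them. Together the 9 genes held 22 matches, 14 of them 8mers, or 0.76 per kb of 3′ UTR, against 0.07 per kb over all protein-coding genes. Their 3′ UTRs were also longer, with a median of 2775 bases against 961.

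The matches were spread unevenly. Lin28b, Trim71, Hmga2 and Igf2bp1 held 4 each, a count of at least 4 that 12 protein-coding genes (0.0571%) reached, and Lin28a held 2. In Lin28b and Hmga2 the 8mer stood 36 and 21 bases after the stop codon, and the other 3 matches of each, all 7mer-m8, stood far downstream. The 4 matches of Trim71 were all 8mers and formed 2 pairs, at 166 and 262 bases and at 3591 and 3617 bases after the stop codon. Those of Igf2bp1 began 1715 bases after it. Igf2bp2, Igf2bp3, Sall4 and Hmga1 held 1 each.

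**Figure D1:**
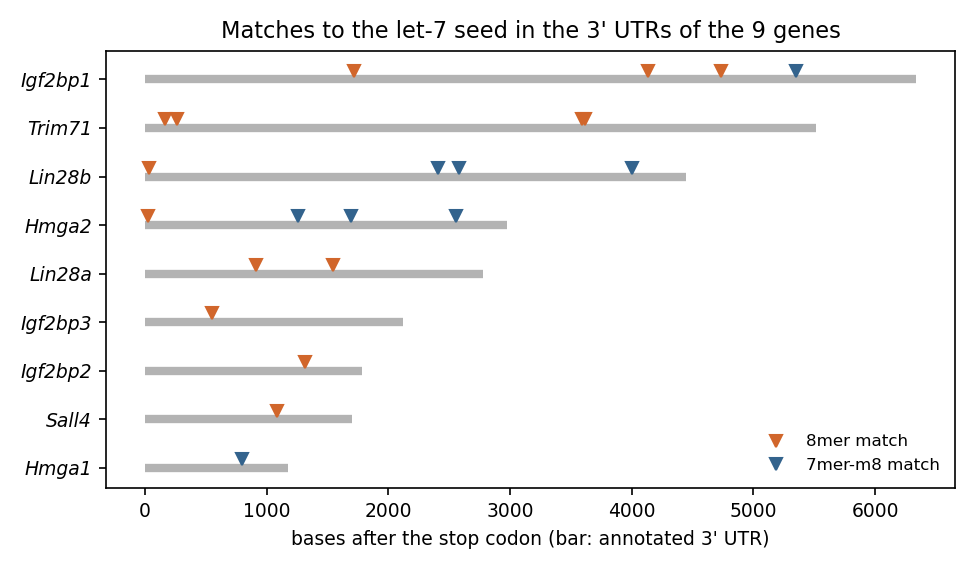
Matches to the let-7 seed along the 3′ UTRs of the 9 genes, drawn as bars from the stop codon in bases, with 8mer and 7mer-m8 matches as triangles of different colour. Lin28b, Trim71, Hmga2 and Igf2bp1 carry 4 matches each, and the first match of Lin28b and of Hmga2 lies 36 and 21 bases after the stop codon.

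The libraries held 38170078 (replicate 1) and 36382223 (replicate 2) counts in annotated genes, and all 9 genes were read at 754 counts or more. Levels are in TPM, an abundance per transcript length scaled to 1 fixed total per library, so that genes can be compared within a library. That total includes the spike-ins, whose share of TPM was 13.03% in replicate 1 and 7.82% in replicate 2. The TPM of genes is therefore somewhat raised in replicate 2 relative to replicate 1, while the TMM ratios below leave the spike-ins out. Genes of hindbrain position added after the data were seen were present, with Gbx2, a gene of the anterior hindbrain, at 33.07 and 23.05 TPM and Irx3 at 37.87 and 33.62 TPM, while Egr2 was low at 0.45 and 1.72 TPM. All 13 neural progenitor markers reached 1 TPM in each library.

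All 9 genes reached 1 TPM in each library, as did 33.0% of all annotated genes, and they spanned a wide range. The most abundant was Hmga1, at 442.66 TPM (replicate 1) and 648.13 TPM (replicate 2) (mean 545.39 ± 145.289 TPM, SD, n = 2), above 98.4% of the genes detected in both libraries. Trim71 was the least abundant, at 3.02 and 7.02 TPM (5.02 ± 2.828 TPM, SD, n = 2), above 23.8% of them. The order by mean level was Hmga1, Igf2bp1, Igf2bp2, Igf2bp3, Hmga2, Sall4, Lin28b, Lin28a and Trim71. Igf2bp1 and Igf2bp2 overlapped in their 2 values, and so did each pair of neighbours from Hmga2 to Lin28a; the other neighbours in this order did not overlap.

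**Figure D2:**
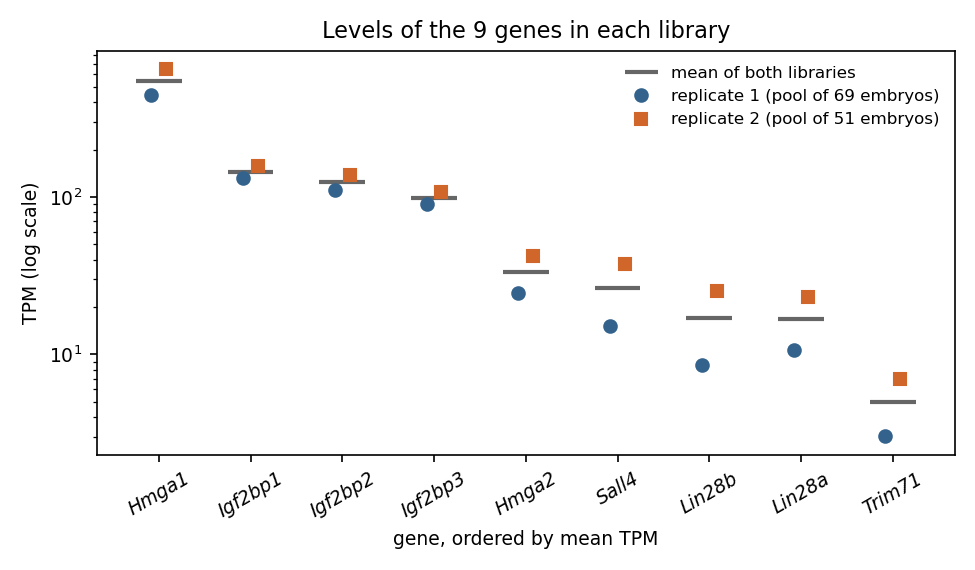
TPM of each gene in replicate 1 (circles) and replicate 2 (squares) on a log axis, with the mean as a bar and the genes ordered by it. Replicate 2 lies above replicate 1 for all 9 genes, and the gap is widest for Lin28b, at 8.58 and 25.44 TPM.

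Among the RNA-binding proteins that act on let-7, Lin28a (chr4:134003330-134018841) had 10.62 TPM (replicate 1) and 23.17 TPM (replicate 2) (16.89 ± 8.874 TPM, SD, n = 2). Lin28b (chr10:45376620-45486395) had 8.58 and 25.44 TPM (17.01 ± 11.922 TPM, SD, n = 2). Their means were close, and their order turned between the libraries: the TPM ratio of Lin28a to Lin28b was 1.24 in replicate 1 and 0.91 in replicate 2. Their longest annotated coding sequences are 73.4% identical over 590 aligned bases. Trim71 (chr9:114507133-114564369) stood below both in each library.

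Sall4 (chr2:168748332-168767943) had 15.13 and 37.36 TPM (26.25 ± 15.719 TPM, SD, n = 2), with replicate 2 again the higher. Hmga2 (chr10:120361275-120476469) had 24.47 and 41.94 TPM (33.2 ± 12.353 TPM, SD, n = 2). Hmga1 (chr17:27556497-27563674) exceeded Hmga2 by 18.09 times in replicate 1 and 15.45 times in replicate 2 in TPM, so that the AT-hook genes differed far more from each other than between the pools.

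The mRNA-binding Igf2bp genes formed a narrow group at high levels. Igf2bp1 (chr11:95957163-96005940) had 132.78 and 156.6 TPM (144.69 ± 16.843 TPM, SD, n = 2). Igf2bp2 (chr16:22059009-22163299) had 111.45 and 138.16 TPM (124.81 ± 18.887 TPM, SD, n = 2). Igf2bp3 (chr6:49085223-49214957) had 89.74 and 107.67 TPM (98.7 ± 12.678 TPM, SD, n = 2). The order Igf2bp1, Igf2bp2, Igf2bp3 held in both libraries for the TPM of the whole gene. Of the TPM of Igf2bp2, 53.0% and 51.3% lay in transcripts without an annotated coding sequence. Among coding transcripts Igf2bp2 stood below Igf2bp3. Summed, the family had 333.97 and 402.43 TPM.

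The pools were then compared by the log2 ratio of replicate 2 over replicate 1, from counts scaled by TMM. It was above 0 for 9 of 9 genes, against 49.9% of the 14385 genes whose CPM, a count relative to its library's total, was 1 or more in each library, and 51.6% of those that averaged 5 TPM or more. The median ratio of the 9 genes was 0.70, and that of all genes tested was 0. The ratio was at least 1.5-fold for 5 of 9, against 4.03% of all genes, and at least 2-fold for 4 of 9, against 0.799% of all genes and 0.426% of those that averaged 5 TPM or more. The 95% counting interval of the ratio lay above 0 for 9 of 9, against 32.0% of all genes. This interval narrows with more counts: that of Igf2bp1, with 28404 and 30431 counts, lay above 0 at a log2 ratio of 0.18. The share among genes of like counts was not taken, so 9 of 9 also reflects depth. The authors' deposited TPM intervals, whose level is not stated, did not overlap for 9 of 9. They did not overlap with replicate 2 higher for 29.2% of all genes tested. These intervals are on the TPM scale, which is somewhat raised in replicate 2 by the spike-in share. Some do not hold the TPM given above: for Hmga1 in replicate 1, at 442.66 TPM, the interval was 426.06 to 441.02. Ratios between these pools were known for genes of this kind when the 9 were chosen, so the counts are not independent evidence of a direction. In bulk tissue, fewer cells of a type and less RNA per cell cannot be told apart.

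The ratios are given here in 3 tiers, from high to low. Lin28b had 1230 counts in replicate 1 and 3270 in replicate 2, a log2 ratio of 1.49 (95% counting interval 1.39 to 1.59) that 27 of the 14385 genes exceeded. Sall4 followed with 1521 and 3422 counts and a log2 ratio of 1.25 (1.16 to 1.34). Trim71 had 754 and 1571 counts and a log2 ratio of 1.14 (1.01 to 1.26), and Lin28a had 929 and 1885 counts and a log2 ratio of 1.10 (0.99 to 1.21). These were the 4 least abundant genes of the set, and each ratio lay above those of at least 99.4% of all genes. Summed over the 4 genes, the level was 37.35 and 92.99 TPM.

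The AT-hook genes stood between. Hmga2 had 2389 and 3670 counts and a log2 ratio of 0.70 (0.62 to 0.77), above 97.5% of all genes. Hmga1 had 17726 and 23237 counts and a log2 ratio of 0.47 (0.44 to 0.50), above 92.9% and inside the range from the 5th to the 95th percentile of all genes, which was -0.85 to 0.54. The Igf2bp genes differed least between the pools. Igf2bp2 had a log2 ratio of 0.24 (0.20 to 0.28), Igf2bp1 of 0.18 (0.15 to 0.20) and Igf2bp3 of 0.18 (0.15 to 0.22), so that 2915 to 3833 genes had higher ratios and all 3 lay inside the same range. The intervals cover counting error only and not the spread between pools. Scaling to the spike-ins instead of TMM raised every one of the 9 log2 ratios, and the median of all genes, by 0.82. Of the 7202 genes with a TMM ratio below 0, 6409 turned above 0 when scaled to the spike-ins, with TMM ratios as low as -0.82. Higher and lower below therefore mean relative to the median gene under TMM.

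**Figure D3:**
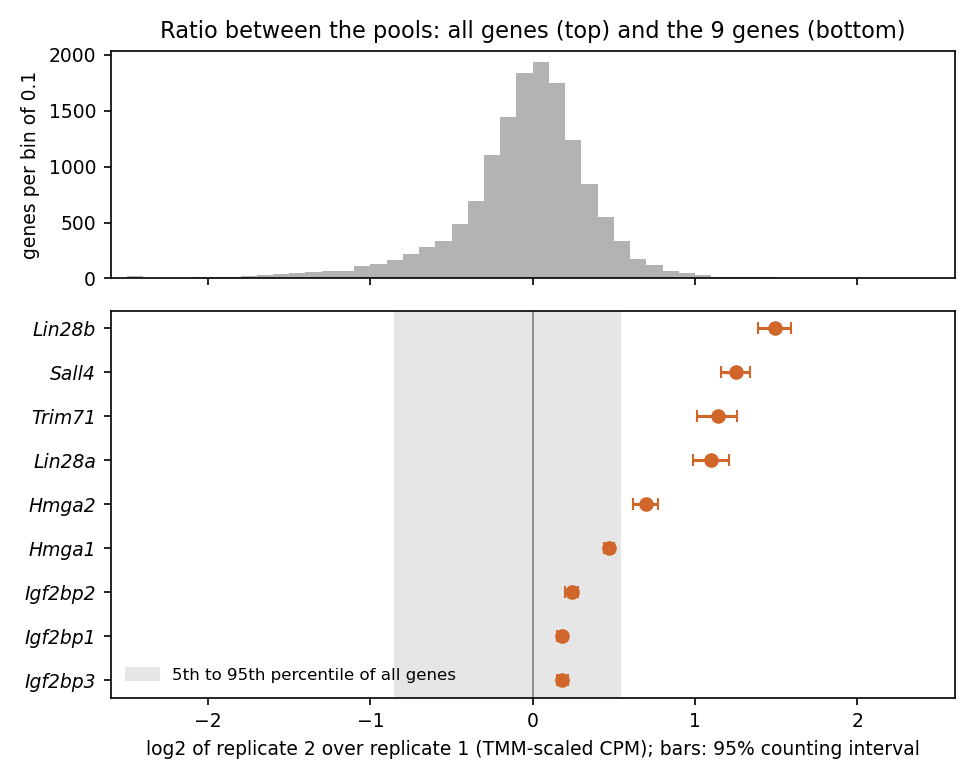
Log2 ratio of replicate 2 over replicate 1 for all 14385 genes (top, histogram with values beyond 2.5 drawn in the end bins) and for the 9 genes with 95% counting intervals (bottom). The shaded band is the 5th to 95th percentile of all genes, -0.85 to 0.54; Lin28b, Sall4, Trim71, Lin28a and Hmga2 lie to its right, and Hmga1 and the Igf2bp genes lie within it.

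The transcripts behind these levels differed from gene to gene. Lin28b, Trim71 and Igf2bp3 had 1 quantified transcript each, and Lin28a-201, Hmga2-201 and Igf2bp1-201 held 94.4% or more of their gene's TPM in both libraries. Hmga1 was divided between Hmga1-203, of 106 codons, with 58.1% and 58.8% of the gene's TPM, and Hmga1-201, of 96 codons, with 31.0% and 31.2%. Sall4-201, of 1067 codons, held 53.7% and 56.5%, and Sall4-202, of 278 codons and the same 3′ UTR length, held 31.1% and 30.1%. The shares of these Hmga1 and Sall4 transcripts differed by under 3 percentage points between the pools, while the TPM of Sall4 differed by 2.47-fold. Lin28a-201 held 94.4% and 98.4% of Lin28a.

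Igf2bp2 stood apart in its transcript makeup. Igf2bp2-207, annotated as a retained intron with no coding sequence, held the largest share of its TPM, 41.5% in replicate 1 and 41.8% in replicate 2. Igf2bp2-201, of 592 codons, held 36.9% and 35.5%, and Igf2bp2-202, of 524 codons, held 10.1% and 13.1%. Transcripts without an annotated coding sequence made up 53.0% and 51.3% of the TPM of Igf2bp2, against 4.8% and 3.4% for Igf2bp1. The coding transcripts Igf2bp2-201 (41.1 and 49.11 TPM) and Igf2bp2-202 (11.3 and 18.14 TPM) together stood below Igf2bp3-201 (89.74 and 107.67 TPM). Transcripts with no annotated 3′ UTR, among them the noncoding ones, were not searched for let-7 matches. With these counted as having none, the share of Igf2bp2 TPM in transcripts with a let-7 match was 47.0% and 48.7%. For the other 8 genes this share was 91.7% or more in either library. How reads are divided among isoforms is an estimate: without length correction, from counts, Sall4-201 would hold 73.1% of Sall4 rather than 55.1% on average.

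**Figure D4:**
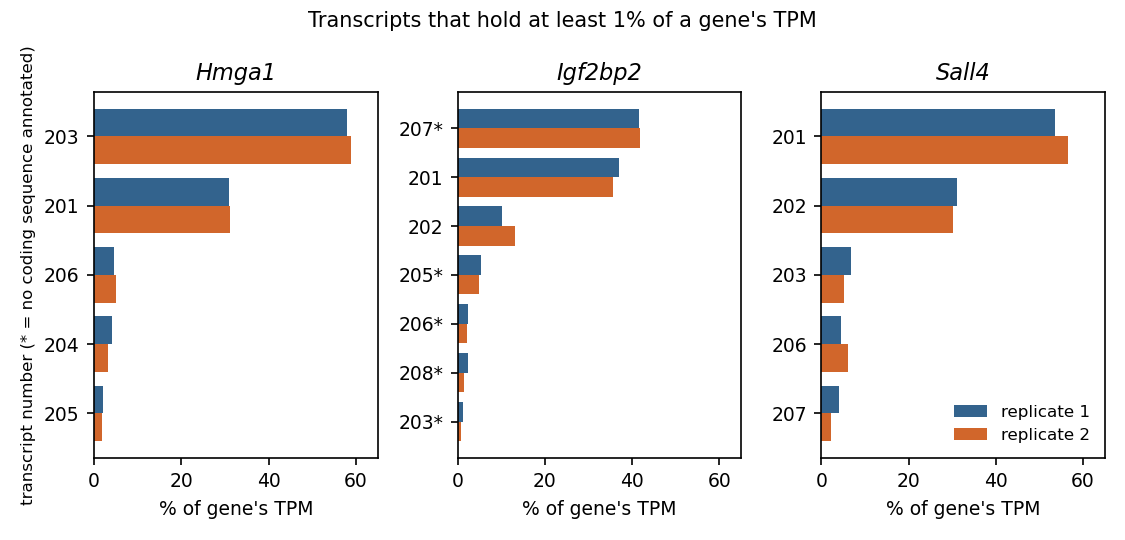
Share of each gene's TPM, in percent, held by its transcripts in replicate 1 and replicate 2, for Hmga1, Igf2bp2 and Sall4 and for transcripts with at least 1% in either library. An asterisk marks a transcript with no annotated coding sequence; Igf2bp2-207 is the largest of Igf2bp2 at 41.5% and 41.8%.

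Reads of some genes could be shared with other loci. The intronless copy Hmga1b is 98.9% identical to Hmga1 over 358 aligned bases and was listed with 278 and 344 counts, against 17726 and 23237 for Hmga1, so the division between them is uncertain. The pseudogene Gm38158, 94.6% identical to Hmga2 over 295 bases, had 4 and 3 counts. Genes on the opposite strand shared exon bases with 7 of the 9 genes, and the strand setting of the counting is not known from the labels or headers. The longest overlap was that of Igf2bp3 with Malsu1, a mitochondrial ribosome assembly factor, over 1529 bases; Malsu1 had 1245 and 1127 counts and a log2 ratio of -0.06. Hmga1 shared 102 bases with AI413582 (333 and 242 counts), Hmga2 140 bases with 1700006J14Rik (46 and 52 counts) and Sall4 526 bases with Gm14261 (5 and 9 counts). Lin28a, Trim71 and Igf2bp1 overlapped Gm13061, C130032M10Rik and Gm29202, which had 24 counts or fewer in either library.

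The loops of the let-7 precursors are the sequence that LIN28 binds, and a known element of its binding is GGAG. The 12 let-7 family hairpins of RefSeq were searched on their own strand for these letters between the 2 arms, and 9 held them. A loop with the motif, in capitals, is set beside 1 without.
Mirlet7g: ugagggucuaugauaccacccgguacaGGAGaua
Mirlet7b: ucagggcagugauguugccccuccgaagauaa
A match is a description of letters and no match says nothing of binding. The hairpins themselves had 0 counts in all 10 rows found in the tables, and each hairpin is shorter than the RNA size limit of the libraries; 0 counts allow for up to 3.

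Genes that host let-7 hairpins on the same strand were mixed relative to the median gene. This set was made by coordinates after the data were open. It has 6 genes, 2 of them higher and 4 lower in replicate 2, while 49.9% of all genes were higher. Among the lower ones, Spaca6, which holds Mirlet7e, had 34.35 and 37.35 TPM and a log2 ratio of only -0.01. Wdr82, which holds Mirlet7g, had 23.95 and 21.75 TPM and -0.27. Mir99ahg, the host of Mirlet7c-1, had 51.9 and 52.14 TPM with a log2 ratio of -0.13. The host of Mirlet7a-2, 3110039I08Rik, had 31.56 and 24.06 TPM and a log2 ratio of -0.40, and the host of Mirlet7a-1, Mirlet7d and Mirlet7f-1, 6720427I07Rik, had 1.66 and 2.02 TPM and 0.20. Huwe1, which holds Mir98 and Mirlet7f-2, was at 38.62 and 44.46 TPM with 0.12. Host RNA does not give the level of mature let-7.

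Genes of let-7 processing and decay were all present. Of this list, 19 of 19 had a CPM of at least 1 in both libraries, as did 14385 of all 43346 annotated genes. Of the 19, 13 were higher and 6 lower in replicate 2, with a median log2 ratio of 0.11, while 49.9% of all genes were higher. None of the 19 was 1.5-fold higher, against 4.03% of all genes. Scaled to the spike-ins, 1 was lower. Drosha, which cuts the primary transcript, and its partner Dgcr8 had log2 ratios of 0.11 and 0.22. Dicer1, which cuts the precursor, had 11.09 and 14.39 TPM and 0.30. The uridylyl transferases Tut4 and Tut7, which LIN28A recruits to tail let-7 precursors, had 0.19 and 0.33, and Dis3l2, the nuclease that degrades the tailed precursor, had 28.57 and 27.86 TPM and -0.14. The effector Ago2 had the highest ratio of the list, 0.51 (10.84 and 16.34 TPM), and Ago4 the lowest, -0.83 (2.22 and 1.5 TPM). Ago2 also carries 3 let-7 matches in its longest 3′ UTR.

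Other known let-7 targets were mostly higher in replicate 2 too, with a lower median than the 9 genes. Of 15, 14 were higher in replicate 2 (49.9% of all genes were) and 3 were at least 1.5-fold higher (4.03% of all genes were). Their median log2 ratio was 0.21, or 1.03 when scaled to the spike-ins. Nr6a1, a nuclear receptor of the early embryo that carries 8 let-7 matches, had 4.06 and 10.42 TPM and a log2 ratio of 1.01 (0.88 to 1.15). Nr2e1, a nuclear receptor of neural stem cells, had 0.96 and 2.55 TPM and 1.30 (0.95 to 1.71), with no match in its longest 3′ UTR. Ccnd2, a G1 cyclin, had 165.09 and 288.68 TPM and 0.73, also with no match. Igf1r, with 2 matches, was the 1 gene lower in replicate 2, at 23.01 and 15.98 TPM and -0.60, or 0.21 when scaled to the spike-ins. By the same search 8 of the 15 hold a 7mer-m8 or 8mer match, so the list and the matches are not the same set. Shorter matches such as TACCTC were not counted for this list, so a gene with no match here can hold one.

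The insulin-like growth factor genes, among them the mRNA that gives IGF2BP its name, were evenly divided about the median gene. Of 14, 12 had a CPM of at least 1 in both libraries, of which 6 were higher and 6 lower in replicate 2, and the median log2 ratio was 0.02. Igf2 had 196.06 and 183.51 TPM and a log2 ratio of -0.19. Igfbp2, the most abundant of them, was at 599.95 and 416.11 TPM with -0.61, the lowest of the list. The highest was Igf1, at 0.30. Scaled to the spike-ins, 0 of the 12 were lower.

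Paralogs and relatives of the 9 genes were likewise mixed. Of 16, 10 were higher and 6 lower in replicate 2, with a median log2 ratio of 0.06, while 49.9% of all genes were higher. When scaled to the spike-ins, 0 of the 16 were lower. Of the Sall family, Sall1 had 14.27 and 9.39 TPM and a log2 ratio of -0.68, Sall3 had 6.58 and 4.13 TPM and -0.75, and Sall2 had 45.51 and 50.88 TPM and 0.09, against 1.25 for Sall4. The cold-shock protein gene Ybx3 had 13.17 and 25.12 TPM and 0.85, while its abundant paralog Ybx1 had 807.03 and 837.13 TPM and -0.04. Among other chromatin proteins of the high mobility group, Hmgb2 had 265.6 and 411.6 TPM and 0.55, Hmgn5 had 0.84, and Hmgn2, the most abundant, had 2407.49 and 2607.67 TPM and 0.03. Scaled to the spike-ins, Sall1 and Sall3 were at 0.14 and 0.07, Sall2 at 0.90 and Sall4 at 2.07, so the Sall genes stood on both sides of 0 under TMM alone.

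Several defining genes of pluripotent and germ cells, which also express Lin28a and Sall4, were at or near 0, while others of the list were detected at low levels. Zfp42, Utf1 and Dppa3 had 0 counts in both libraries, Pou5f1 had 0 and 2 counts and Nanog 5 and 9. Of the 15, 3 reached 1 TPM in each library, against 33.0% of all annotated genes. These were Tfap2c at 2.64 and 4.62 TPM (195 and 300 counts), Nanos3 at 3.46 and 1.31 TPM, and Dnd1 at 1.85 and 1.59 TPM. The level of Tfap2c, a transcription factor gene, was of the order of that of Trim71. Over all 15, the list summed to 9.43 and 9.62 TPM. The germ cell gene Ddx4 had 19 and 73 counts, 0.26 and 1.1 TPM.

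Markers of cell state and of other cell types also differed between the pools. All 14 markers of postmitotic neurons were lower in replicate 2, 10 of them by at least 1.5-fold against 9.40% of all genes, with a median log2 ratio of -0.97, and they summed to 2487.52 and 1607.27 TPM. Scaled to the spike-ins, their median was -0.15 and 6 of the 14 turned above 0. All 16 cell cycle genes were higher in replicate 2, against 49.9% of all genes, and 2 were at least 1.5-fold higher, against 4.03%. Their median was 0.29, or 1.11 when scaled to the spike-ins, where the median of all genes was 0.82. The cell cycle genes summed to 2900.65 and 3764.8 TPM, and Mki67 had the highest ratio, 0.72. Of the 6 later radial glia genes with enough counts, 5 were lower, with a median of -0.85 that moves to -0.04 when scaled to the spike-ins, and sums over all 7 genes of 86.58 and 65.97 TPM. Of the 13 neural progenitor markers, 4 were higher and 9 lower, with a median of -0.16 that turns to 0.66 when scaled to the spike-ins, and sums of 2665.42 and 2242.0 TPM. Lin28a, Lin28b, Trim71 and Sall4 had larger ratios than any of the 16 cell cycle genes or 13 progenitor markers. This did not hold for the neural crest markers given below.

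Of the non-neural lists, all 10 macrophage markers were lower in replicate 2 (median -0.70, or 0.11 when scaled to the spike-ins, sums of 103.11 and 64.0 TPM). Over all genes tested, 49.9% were higher in replicate 2. Of 12 mesenchyme markers 9 were lower (median -0.23, or 0.59 when scaled to the spike-ins, sums of 709.04 and 607.69 TPM). Of 8 erythroid markers 7 were higher (median 0.27, or 1.09 when scaled to the spike-ins, sums of 12370.39 and 14242.61 TPM). The 10 endothelial markers were divided evenly (median 0.03, or 0.85 when scaled to the spike-ins, sums of 204.74 and 231.87 TPM). Of the 7 neural crest markers with enough counts 4 were higher and 3 lower (median 0.16, or 0.98 when scaled to the spike-ins). Over all 8 the sums were 152.3 and 139.89 TPM. The log2 ratios of these 7 markers ran from -1.01 for Tfap2b to 1.59 for Sox10, which was above that of each of the 9 genes. No marker in these cell type lists was at 0 in both libraries. The part of these differences in cell makeup in the ratios of the 9 genes was not tested.

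**Figure D5:**
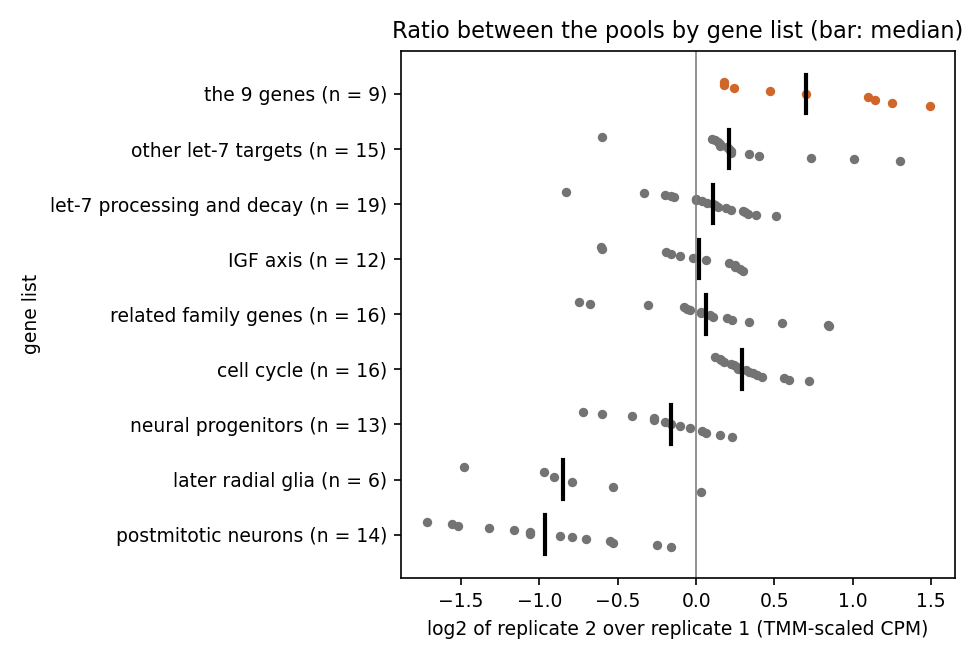
Log2 ratio of replicate 2 over replicate 1 for each gene (points) of the 9 genes and of 8 other lists, for genes with a CPM of at least 1 in both libraries, with the median of each list as a bar. The 9 genes have a median of 0.70 and the postmitotic neuron markers of -0.97; the cell cycle genes all lie between 0.12 and 0.72.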

How the data were processed

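The 2 libraries of hindbrain RNA were analysed. Per the labels, RNA was extracted with mirVana, and the protocols list the SMARTer Ultra Low kit manual. Notes deposited beside the tables name mm10 and annotation M4. The aligner, counting program and strand setting were not given in the sources used here. Per the file headers, the gene and transcript tables hold an expected count, in which reads that match several features are divided. The deposited TPM, posterior mean TPM and FPKM stand beside it, and the deposited percent of a gene's abundance per isoform was recomputed here from TPM.

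Expected counts of the 43346 annotated genes were rounded; spike-ins and tRNA rows were left out. Ratios are log2 ratios of TMM-scaled CPM (edgeR 4.0.16 in R 4.3.3, prior count 2) for genes with a CPM of at least 1 in both libraries, with exact Clopper-Pearson 95% counting intervals, which hold counting error alone, as reads can be copies of 1 molecule. They compare 2 libraries and carry no p-value. Tested on simulated counts of 14385 genes, of which 50 were given each log2 change of -2, -1, 1 and 2, the ratio step gave median estimates of -1.97, -1.00, 0.99 and 2.00. Symbols, coordinates and 3′ UTRs come from GENCODE M21 on the same assembly (42462 of 43346 gene rows matched), in which the length of Hmga1-203 is 1595 bases against 1635 in the deposited table. MicroRNA sequences come from RefSeq GRCm38.p6, and copies were found with blastn 2.17.0+ (at least 90% identity over 100 bases). Other steps used Python 3.11.15, pandas 2.3.3, numpy 2.4.6, scipy 1.17.1, Biopython 1.88 and matplotlib 3.10.9.

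The 9 genes and the gene lists were chosen with earlier results of these data known. Named are the 9 genes, their transcripts with at least 10% of the gene's TPM, copies and overlapping genes, any gene of the let-7 processing, let-7 target and related family lists, and from other lists the most abundant gene and those of highest and lowest ratio. Some items are not reported here. The genes of hindbrain position, the let-7 host genes and the pluripotency genes outside this rule were added after their values were seen. Alternatives were scaling by DESeq2 1.42.0 size factors, by total counts or by spike-ins, prior counts of 0.5 and 5, no filter, posterior means, FPKM, a threshold of 5 TPM, each library alone, and 8mer or 6mer matches.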

Additional observations from a re-analysis of the deposited data

How the results depend on the processing

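All 9 genes stayed higher in replicate 2 under DESeq2 size factors, total counts, spike-in scaling, prior counts of 0.5 and 5, no filter and posterior mean counts. Under TMM 49.9% of all genes were higher in replicate 2. Spike-in scaling also put 6409 of the 7202 genes below 0 under TMM above 0, so 9 of 9 there sets these genes little apart. Outside spike-in scaling, no log2 ratio of the 9 moved by more than 0.02. With spike-in scaling the median of the 9 was 1.52 in place of 0.70, while the median of all genes moved to 0.82; the list medians then turned above 0 for neural progenitors (0.66), mesenchyme (0.59) and macrophages (0.11), and stayed below 0 for postmitotic neurons (-0.15) and later radial glia (-0.04). These 3 directions therefore depend on the scaling; the cause was not tested. Asking for a 1.5-fold ratio leaves 5 of 9 genes. A threshold of 5 TPM in both libraries leaves 8, since Trim71 had 3.02 TPM in replicate 1. Of all annotated genes, 24.2% reached it. With either library left out, the number of genes at a TPM of at least 1 was 9 each time, and no ratio can be formed. Among 8mers alone the share of Hmga1 TPM with a match was 0 in place of 93.2%. Depth did not limit these genes, which had 754 counts or more; the number of pools did. No paired analysis was possible because there is 1 group.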

Other observations

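Over the genes outside the 9, the median ratio between the pools differed little with the number of let-7 matches in the longest 3′ UTR, while the share of higher genes was larger in the small classes with 2 or more. The 11689 genes without a match had a median log2 ratio of replicate 2 over replicate 1 of -0.01; 49.2% of them were higher in replicate 2 and 3.8% were at least 1.5-fold higher. The 1239 genes with 1 match had a median of -0.01, with 49.3% higher and 3.23% at least 1.5-fold higher. The 146 genes with 2 matches had a median of 0.05, with 59.6% and 3.42%. The 23 genes with 3 or more had a median of 0.03, with 60.9% higher and 13.04%, or 3 genes, at least 1.5-fold higher. These differences were not tested. The median 3′ UTR length grew along this order from 1133 to 4466 bases. Among genes grouped by effective transcript length, the median log2 ratio ran from -0.03 for the shortest to 0.04 for those of 5000 bases or more.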
